A study of Homo sapiens with 10 samples.

Results

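The genes described here are the 4 Janus kinases (JAK1, JAK2, JAK3 and TYK2) and 4 SOCS feedback inhibitors (SOCS1, SOCS2, SOCS3 and CISH). They were chosen by symbol, and all 8 were found among the 25275 symbols of each of 2 expression tables, one for OCI-LY10 cells and one for TMD8 cells. Both are established human lymphoma lines, of the activated B-cell-like (ABC) kind of diffuse large B-cell lymphoma. Each line was transduced with shRNA constructs that doxycycline switches on, and all libraries were made after 2 days at 20 ng/ml of doxycycline, the controls included. In OCI-LY10 there were 2 libraries with an shRNA against STAT3, 1 with shRNA 10 and 1 with shRNA 16, and 1 library with a control shRNA. The 3 TMD8 libraries carry the same labels, but the columns of the TMD8 table bear no name, so they are given by position and no shRNA comparison was made in TMD8. Each library is the only one of its shRNA, and nothing in the labels tells whether separate cultures were pooled. A further 4 samples, STAT3 ChIP-seq of both lines 4 h after the JAK inhibitor AZD1480 or DMSO, were not analysed here.

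Janus kinases are tyrosine kinases bound to the inner tails of cytokine receptors. When a cytokine joins receptor chains, the kinases phosphorylate the receptor and then STAT proteins, which enter the nucleus and act as transcription factors. STAT targets include the SOCS genes, whose proteins block the kinases or the receptor and bring ubiquitin ligases to them, so that the pathway limits itself. In ABC lymphoma, secreted interleukin 6 and interleukin 10 are known to drive STAT3 through these kinases, and the knockdown asks which genes depend on STAT3.

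Expression is given as FPKM, fragments per kilobase of gene scaled to sequencing depth, as the authors deposited it. STAT3 itself stood at 11.1 FPKM with shRNA 10 and 10.6 FPKM with shRNA 16, against 16.5 FPKM in the OCI-LY10 control library. It was 65.8% of control, a log2 change of −0.56 (SE 0.10, limma adjusted p = 0.0465). Over 10993 genes the 2 STAT3 shRNA libraries of OCI-LY10 correlated with each other at Pearson r = 0.994 and with the OCI-LY10 control library at 0.845 each, on log2(FPKM + 1). The library labelled OCI-LY10 control stood nearer to the 3 TMD8 columns, at r of 0.937, 0.941 and 0.962, than to the other 2 OCI-LY10 libraries. Genes are not independent replicates, so these correlations are descriptions. The knockdown and whatever else sets the control library apart cannot be told apart here, and without that library there is no OCI-LY10 comparison. B-cell markers summed to 2386 and 2642 FPKM with STAT3 shRNA, against 838 FPKM in the control. Of the 7 markers 5 were higher, 1 lower (CD22) and 1 (PAX5) not called. BLK, a B-cell kinase, stood at 87.9 and 93.5 FPKM with STAT3 shRNA, against 4.94 FPKM in the control. CD79B, a chain of the B-cell receptor, stood at 1139 and 1226 FPKM with STAT3 shRNA, against 226 FPKM in the control. MS4A1, which encodes CD20, stood at 305 and 295 FPKM with STAT3 shRNA, against 138 FPKM in the control. CD22, an inhibitory receptor, stood at 23.0 and 29.3 FPKM with STAT3 shRNA, against 62.1 FPKM in the control. The epithelial list summed to 5.48 and 5.98 FPKM with STAT3 shRNA, against 34.8 FPKM in the control. Its CDH1, an adhesion gene, stood at 0.0102 and 0 FPKM with STAT3 shRNA, against 32.6 FPKM in the control and 16.2, 17.2 and 15.8 FPKM in the TMD8 columns. EPCAM of the same list went the other way, at 4.39 FPKM in both STAT3 shRNA libraries and listed at 0 in the control and in all TMD8 columns (limma adjusted p = 0.00755). Stromal and endothelial markers summed to 5.52 and 6.09 FPKM with STAT3 shRNA, against 5.38 FPKM in the control, but single genes of that list moved in opposite directions. PECAM1, an endothelial adhesion gene, stood at 5.43 and 6.05 FPKM with STAT3 shRNA, against 0.109 FPKM in the control (limma adjusted p = 0.0091). COL1A1, a collagen gene, stood at 0.00823 and 0 FPKM with STAT3 shRNA, against 3.60 FPKM in the control (limma adjusted p = 0.0075). Genes were tested at a mean of at least 1 FPKM. CDH1 and COL1A1 passed this filter only through the control, and EPCAM and PECAM1 only through the STAT3 shRNA libraries. The direction of their calls follows in part from the filter. Markers of T and NK cells (7 genes) and of myeloid cells (6 genes) were at most 1 FPKM in all 6 libraries. The part of these differences in the results below was not tested.

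Among the 6 members that could be tested, JAK2 and SOCS3 fell most with STAT3 shRNA in OCI-LY10 on the log2(FPKM + 1) scale, SOCS1 fell by less, and JAK3 rose. JAK1 and TYK2, the most abundant kinases, did not pass the test. SOCS2 and CISH were at or near 0 in both STAT3 shRNA libraries and were too low for the test.

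JAK2, the kinase of the erythropoietin, interferon gamma and several interleukin receptors, stood at 1.36 FPKM with shRNA 10 and 1.22 FPKM with shRNA 16, against 11.2 FPKM in the control. Both STAT3 shRNA libraries lay far below the single control library. Of all tested genes, 17.2% were at least 1.5-fold lower on FPKM + 1 with both shRNAs. The mean of 1.29 ± 0.102 FPKM (SD, n = 2) was 11.5% of the control, a log2 change of −2.41 on the log2(FPKM + 1) scale (SE 0.10, limma adjusted p = 0.00894). This scale understates the change of low genes. In bulk RNA, fewer cells with JAK2 transcripts and less transcript per cell cannot be told apart. Of all tested genes, 5.77% had a larger absolute change than JAK2. INSL6, a relaxin-family gene that overlaps JAK2 in the RefSeq annotation, rose, at 3.55 and 2.94 FPKM with STAT3 shRNA and listed at 0 in the control and in all TMD8 columns (limma adjusted p = 0.0137). INSL6 passed the filter on mean FPKM only through the STAT3 shRNA libraries, which favours a higher call. Whether strand was used in counting is not given in the sources used here, so reads of overlapping genes may be shared between them.

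JAK3, which works with the common gamma chain of the interleukin 2 receptor family, stood at 3.40 FPKM with shRNA 10 and 3.39 FPKM with shRNA 16, against 1.61 FPKM in the control. Both STAT3 shRNA libraries were higher than the control, and they differed little from each other. Its mean of 3.40 ± 0.00994 FPKM (SD, n = 2) was 2.11-fold the control, a log2 change of 0.75 (SE 0.09, limma adjusted p = 0.026). The call was lost when no filter on low values was applied (limma adjusted p = 0.0565), and a filter at a mean of 5 FPKM leaves JAK3 untested.

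JAK1, shared by interferon, gp130 and common gamma chain receptors, stood at 32.4 FPKM with shRNA 10 and 33.1 FPKM with shRNA 16, against 38.9 FPKM in the control. Its log2 difference was −0.24 (SE 0.09, limma adjusted p = 0.135), which missed the threshold of 0.05. TYK2, the kinase of interferon alpha, interleukin 12 and interleukin 23 receptors, stood at 37.4 FPKM with shRNA 10 and 42.4 FPKM with shRNA 16, against 30.0 FPKM in the control. Its log2 difference was 0.40 (SE 0.13, limma adjusted p = 0.112). For both kinases the 2 STAT3 shRNA values lay on the same side of the control, below it for JAK1 and above it for TYK2. With 1 control value and 2 closely alike STAT3 shRNA libraries, this does not set either kinase apart, and its share over all genes was not counted. RAVER2, an RNA-binding protein gene, overlaps JAK1 in the annotation. It was at 0.680 and 0.279 FPKM with STAT3 shRNA, against 6.12 FPKM in the control (limma adjusted p = 0.0205). RAVER2 passed the filter on mean FPKM only through the control, so its lower call follows in part from the filter.

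**Figure D1:**
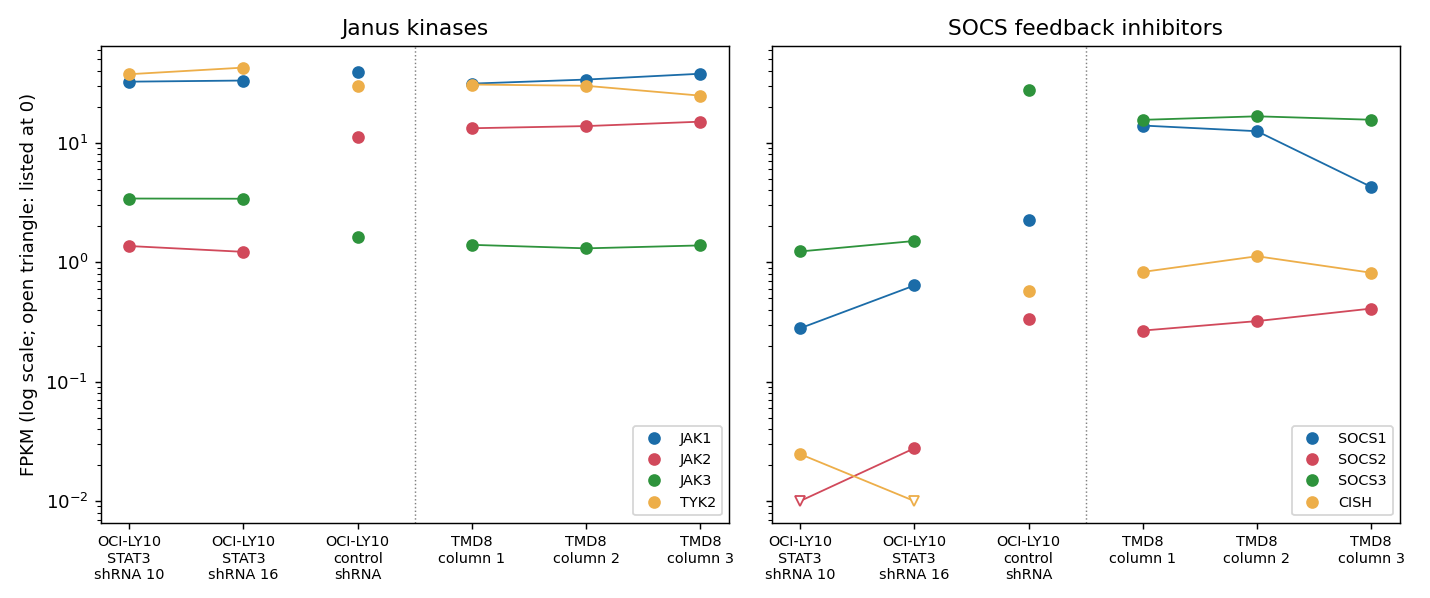
FPKM on a log scale of the 4 Janus kinases (left) and the 4 SOCS feedback inhibitors (right) in each of the 6 libraries. Each point is 1 library, lines join libraries within the STAT3 shRNA pair and within TMD8, open triangles mark values listed at 0, and the dotted line divides the separately deposited tables. JAK2 and SOCS3 drop to between 1.22 and 1.501 FPKM in the STAT3 shRNA libraries, while JAK1 and TYK2 are at 24.7 FPKM or more in every library.

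SOCS3, which binds gp130 and JAK kinases and limits signalling by interleukin 6, stood at 1.23 FPKM with shRNA 10 and 1.501 FPKM with shRNA 16, against 27.3 FPKM in the control. Both STAT3 shRNA libraries were more than an order of magnitude below the control. The log2 ratios to the control were −3.67 with shRNA 10 and −3.50 with shRNA 16, and the mean was 4.99% of the control (limma adjusted p = 0.00773). Among all tested genes 2.32% had a larger absolute change than SOCS3.

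SOCS1, which inhibits the kinases directly through its kinase inhibitory region, stood at 0.279 FPKM with shRNA 10 and 0.637 FPKM with shRNA 16, against 2.26 FPKM in the control. The 2 STAT3 shRNA libraries differed from each other by more than for any other tested member in proportion to their level, yet both lay below the control. The mean of 0.458 ± 0.253 FPKM (SD, n = 2) was 20.3% of the control, a log2 change of −1.17 (SE 0.20, limma adjusted p = 0.0431). SOCS1 passed the filter on mean FPKM only through the control, which favours a lower call. It missed the threshold with a pseudocount of 0.1 FPKM (limma adjusted p = 0.0787) and with no filter on low values (limma adjusted p = 0.105).

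CISH, a feedback inhibitor known as a target of STAT5, stood at 0.0247 FPKM with shRNA 10 and was listed at 0 with shRNA 16, against 0.567 FPKM in the control. SOCS2, which limits growth hormone signalling, was listed at 0 with shRNA 10 and at 0.0276 FPKM with shRNA 16, against 0.334 FPKM in the control. Both genes were thus detected in the control and in 1 of 2 STAT3 shRNA libraries. Scaled to relative depth, the CISH values stood as 1 and 0 reads with shRNA 10 and shRNA 16 to 35 reads in the control, the smallest whole numbers within 1%. For SOCS2 the values stood as 0 and 1 reads to 25 reads in the control. The reads are relative, since FPKM does not give the absolute depth, so no interval or fold is given. With no filter on low values both passed, with limma adjusted p = 0.0333 for CISH and 0.0435 for SOCS2 over 18098 genes. Values at or next to 0 can hardly differ on log2(FPKM + 1), and the SE was 0.02 for CISH and 0.03 for SOCS2. These p-values thus rest in part on the floor and are no measure of replication. MAPKAPK3, a kinase gene that overlaps CISH in the annotation, was far more abundant, at 24.1 and 25.1 FPKM with STAT3 shRNA, against 35.9 FPKM in the control (limma adjusted p = 0.0434). The antisense gene SOCS2-AS1 was listed at 0 in all 3 OCI-LY10 libraries. An exact 0 can also be a failed estimate, since RPS18, a ribosomal protein gene, was listed at 0 in all 6 libraries.

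STAT dimers recognise the palindrome TTCNNNGAA, so it was searched on both strands, where it reads the same, in RefSeq promoter windows of 300 bases (250 before to 50 after each gene start, GRCh38.p14). Windows were found for 7 of the 8 members, 13 windows in all. CISH alone held the palindrome, with 4 matches that start 241, 230, 129 and 112 bases before the gene start. The upstream 150 bases of its window, on the minus strand at chr3:50611875-50612024, are shown because they hold all 4 matches, in capitals:
CISH: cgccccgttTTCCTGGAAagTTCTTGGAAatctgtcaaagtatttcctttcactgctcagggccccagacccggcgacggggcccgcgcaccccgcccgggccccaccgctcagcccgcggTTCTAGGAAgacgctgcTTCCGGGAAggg

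Of 35116 promoter windows, 7.66% held at least 1 match and 0.0199%, or 7 windows, held at least 4. The same palindrome with 4 free bases between TTC and GAA was found in 0 of the 13 member windows and in 6.44% of all windows. A match is only a run of letters, and the windows of JAK2, SOCS1 and SOCS3 that lack it say nothing of STAT binding elsewhere.

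Of the 8 members, 6 averaged 1 FPKM or more in OCI-LY10 and were tested. Of these, 1 (JAK3) was higher with STAT3 shRNA and 3 (JAK2, SOCS1 and SOCS3) were lower at a limma adjusted p below 0.05. SOCS1 was tested only because of its control value, being below 1 FPKM in both STAT3 shRNA libraries, so its lower call follows in part from the filter. Over all 11162 tested genes, 20.3% were called higher and 17.4% lower. By size alone, the same members changed at least 1.5-fold on FPKM + 1 in the same direction with both shRNAs, 1 higher and 3 lower, against 20.1% and 17.2% of all tested genes. With calls this frequent over the table, a call alone does not set a member apart. In size of change on log2(FPKM + 1), SOCS3 and JAK2 ranked above the other 4 tested members. Of all tested genes, 19.2% had a larger absolute change than SOCS1, 33.9% than JAK3, 56.9% than TYK2 and 72.4% than JAK1. For STAT3 itself this share was 44.7%. The test has 1 residual degree of freedom, so its p reflects how far shRNA 10 and shRNA 16 differ, and the single control is assumed to vary like them.

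**Figure D2:**
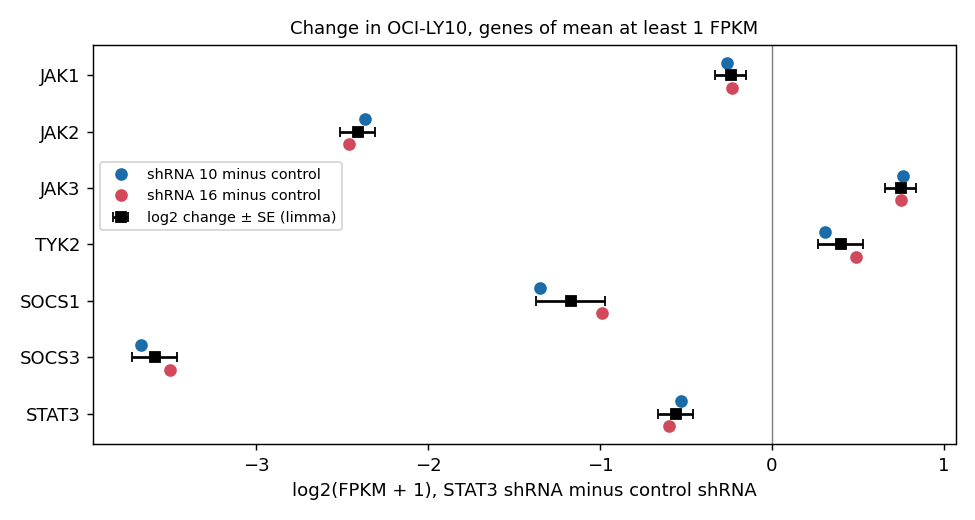
Log2 change of the 6 tested members and of STAT3 in OCI-LY10, STAT3 shRNA minus control shRNA on log2(FPKM + 1). Squares with bars are the limma estimate ± SE, and circles are each shRNA library minus the control library. SOCS3 at −3.59 and JAK2 at −2.41 lie farthest from 0, and the pair of circles is widest apart for SOCS1.

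The makeup of the kinase set differed more between the groups than its sum did. The 4 kinases summed to 74.5 FPKM with shRNA 10 and 80.1 FPKM with shRNA 16, against 81.7 FPKM in the control. JAK2 made up 1.83% and 1.52% of that sum with STAT3 shRNA, against 13.7% in the control. TYK2 made up 50.2% and 53.0% with STAT3 shRNA, against 36.7% in the control. The order of the kinases therefore differed. It ran TYK2, JAK1, JAK3, JAK2 in both STAT3 shRNA libraries, and JAK1, TYK2, JAK2, JAK3 in the control and in every TMD8 column. JAK1 and TYK2 were nearest to each other in TMD8 column 1, at 31.2 and 30.6 FPKM, a gap smaller than the spread of either over the TMD8 columns. With STAT3 shRNA, JAK1 averaged 32.7 ± 0.506 FPKM and TYK2 39.9 ± 3.59 FPKM (SD, n = 2 each), and the values of these kinases did not overlap.

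The 4 inhibitors summed to 1.53 FPKM with shRNA 10 and 2.17 FPKM with shRNA 16, against 30.5 FPKM in the control. SOCS3 was the most abundant of them in all 6 libraries, followed by SOCS1. CISH and SOCS2 came last, and with STAT3 shRNA their values overlapped. SOCS3 held 80.1% and 69.3% of the inhibitor sum with STAT3 shRNA, against 89.6% in the control. Within a library, the percentile of a gene among all genes above 0 (small RNAs left out) does not depend on scaling. SOCS3 stood at percentiles 36.4 and 36.3 with STAT3 shRNA, against 83.6 in the control. JAK2 stood at percentiles 37.4 and 34.3 with STAT3 shRNA, against 68.6 in the control, and JAK3 at 47.1 and 45.6 with STAT3 shRNA, against 39.9 in the control.

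**Figure D3:**
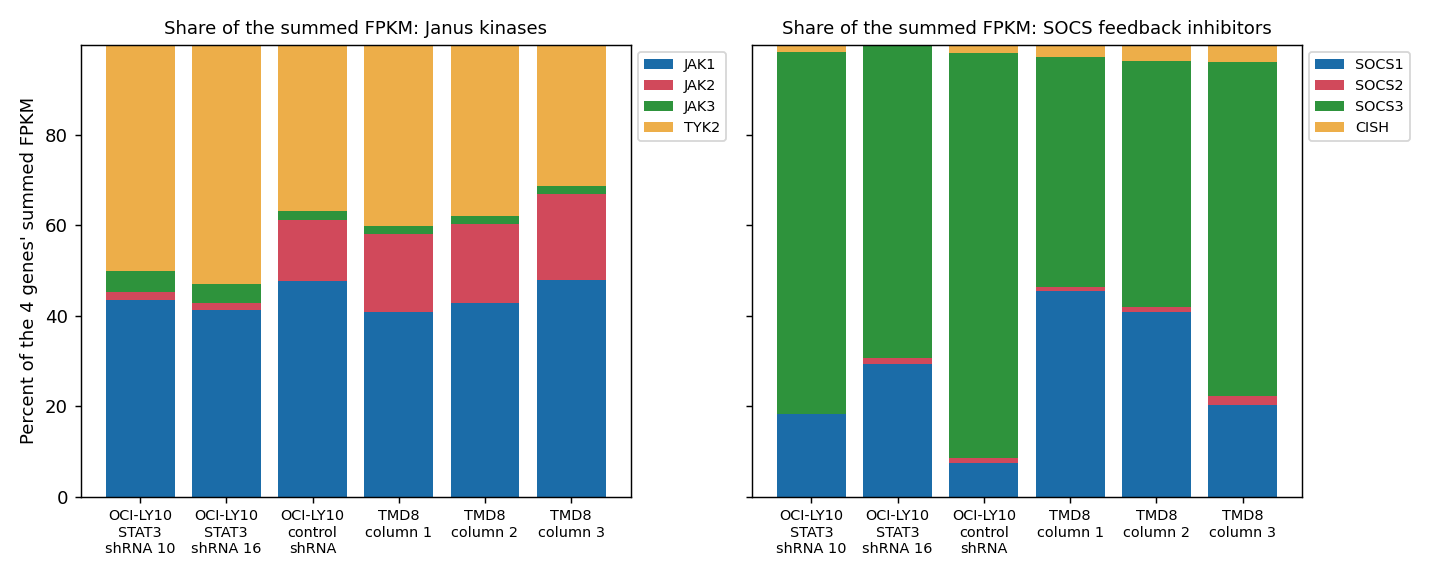
Share in percent of the summed FPKM of the 4 Janus kinases (left) and the 4 SOCS feedback inhibitors (right) in each library, stacked to 100. The JAK2 band shrinks to 1.83% and 1.52% with STAT3 shRNA, against 13.7% in the control, and SOCS1 takes 45.6%, 40.8% and 20.2% in TMD8 columns 1, 2 and 3.

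In TMD8 the kinases varied little among the 3 columns. JAK1 stood at 31.2, 33.7 and 37.7 FPKM in columns 1, 2 and 3, and TYK2 at 30.6, 29.9 and 24.7 FPKM. JAK2 stood at 13.2, 13.7 and 14.97 FPKM and JAK3 at 1.39, 1.30 and 1.38 FPKM. The highest of the 3 columns was 1.04 to 1.23 times the lowest on FPKM + 1 for all 4 kinases. SOCS1 was the exception among the members, at 13.9, 12.5 and 4.26 FPKM, a ratio of 2.83 on FPKM + 1 with column 3 the lowest. SOCS3 stood at 15.5, 16.6 and 15.5 FPKM, a ratio of 1.07. CISH stood at 0.827, 1.12 and 0.814 FPKM, and SOCS2 at 0.267, 0.321 and 0.408 FPKM. At a ratio of at least 1.5, SOCS1 was the 1 member of 6 counted, against 11.5% of 10888 genes. Column 3 also differed in makeup, with small RNA genes at 43.4% of summed FPKM, against 22.9% and 29.0% in columns 1 and 2. The part of this difference in the SOCS1 values was not tested. STAT3 stood at 120.3, 24.3 and 22.5 FPKM in the same columns, a wider range than that of any member.

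Set side by side, the 3 OCI-LY10 libraries lay above all 3 TMD8 columns for JAK3 and below them for JAK2 and SOCS1. Such separation was seen for 20.9% of 11340 genes above and 26.9% below, so 1 and 2 of 6 members are near the background. The tables may have been scaled separately, and no test was made across them. For JAK2 the OCI-LY10 control, at 11.2 FPKM, was close to the TMD8 range of 13.2 to 14.97 FPKM, and the STAT3 shRNA libraries were the ones far away. SOCS3 was higher in the OCI-LY10 control, at 27.3 FPKM, than in any TMD8 column. After these values were seen, the 2 STAT3 shRNA libraries were also set against the other 4 libraries as one set. Of the 6 members, 2 (JAK3 and TYK2) lay above all 4 and 3 (JAK2, SOCS1 and SOCS3) below, against 32.1% and 33.1% of genes. SOCS2 and CISH lay below all 4 as well, under the filter, and JAK1 lay within their range.

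For the members that average 1 FPKM or more and span at least 1 log2 unit over the 6 libraries, the most similar of 10099 genes were found by the root mean square distance between centred log2(FPKM + 1) profiles. The profile of JAK2 was nearest to CKAP4 (distance 0.0888), XXYLT1 (0.127) and SYT17 (0.129). That of SOCS3 was nearest to ANPEP (0.115), C2orf88 (0.125) and FEZ1 (0.138). That of SOCS1 was nearest to H1FX (0.101), TOPORS-AS1 (0.130) and BCL3 (0.215), a nuclear partner of NF-kappa-B. H1FX shared the low value of SOCS1 in TMD8 column 3, at 58.8, 56.3 and 21.3 FPKM in columns 1, 2 and 3. This follows from its choice as the nearest profile, in which column 3 was used. These profiles rest on 6 libraries, 3 from each of 2 tables that may have been scaled separately.

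The rest of the pathway was read from gene lists. Among the cytokine ligands, 9 of 34 genes were tested, of which 1 was higher and 5 lower. Over all tested genes 20.3% were called higher and 17.4% lower. The median log2 change of the ligands was −0.80, against 0.06 over all tested genes. IL10, which signals through JAK1 and TYK2 to STAT3, stood at 1.39 and 2.44 FPKM with STAT3 shRNA, against 97.3 FPKM in the control, a log2 change of −5.10 (limma adjusted p = 0.012). IL12B, the shared chain of interleukins 12 and 23, was listed at 0 in both STAT3 shRNA libraries, against 11.6 FPKM in the control. It passed the filter on mean FPKM only through the control. The lower calls of such ligands, and so the median of the list, follow in part from the filter. IL12A, the partner of IL12B in interleukin 12, fell to 1.67 and 1.30 FPKM, against 3.32 FPKM in the control (limma adjusted p = 0.0454). THPO, thrombopoietin, was the ligand that rose, at 7.32 and 6.80 FPKM with STAT3 shRNA, against 3.32 FPKM in the control (limma adjusted p = 0.0267). THPO lost its call with no filter on low values, where 0 ligands were called higher.

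Among the receptors, 19 of 40 genes were tested, of which 5 were higher, 6 lower and 8 not called, with a median of −0.23. With no filter on low values, 1 receptor gene was called higher and 7 lower. IL2RB, a JAK1-binding chain of the interleukin 2 and 15 receptors, stood at 0.564 and 0.991 FPKM with STAT3 shRNA, against 10.4 FPKM in the control (limma adjusted p = 0.0157). IL13RA1, a TYK2-binding chain of the interleukin 13 receptor, fell to 0.0248 and 0.0848 FPKM, against 2.93 FPKM in the control (limma adjusted p = 0.00908). IL12RB1, which binds TYK2, rose to 5.63 and 6.67 FPKM, against 2.15 FPKM in the control (limma adjusted p = 0.0273). IL4R, which binds JAK1, rose to 12.8 and 11.6 FPKM, against 5.77 FPKM in the control (limma adjusted p = 0.0268). Among these named chains, those that bind JAK1 and those that bind TYK2 stood on both sides. The chains were named as the highest and lowest called, so genes on both sides follow from that choice. IL2RB and IL13RA1 passed the filter on mean FPKM only through the control, so their lower calls follow in part from the filter.

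Of the 7 STAT genes, 6 were tested, with 2 higher, 1 lower and a median of −0.01. STAT5A, activated by JAK2 and JAK3 coupled receptors, rose to 6.11 and 6.32 FPKM with STAT3 shRNA, against 2.69 FPKM in the control (limma adjusted p = 0.022). STAT3 missed the threshold at a pseudocount of 0.1 FPKM (limma adjusted p = 0.0508) and with no filter on low values (0.0688).

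Of the 4 other SOCS genes, SOCS6 was the 1 that fell, at 1.32 and 0.948 FPKM with STAT3 shRNA, against 4.41 FPKM in the control (limma adjusted p = 0.0253). SOCS4, SOCS5 and SOCS7 were not called, and the median of the list was 0.18. SOCS6 lost its call with no filter on low values, where 0 of these genes were called lower. Of 5 genes of the ubiquitin ligase that the SOCS box recruits, CUL5, the cullin scaffold, rose to 11.4 and 11.5 FPKM, against 4.80 FPKM in the control (limma adjusted p = 0.0187), and 4 were not called, with a median of 0.09.

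Among 17 other inhibitors and regulators of the pathway, 5 were higher, 2 lower and 10 not called, with a median of 0.08. With no filter on low values, 4 were called higher and 1 lower. PTPN6, the phosphatase SHP-1, fell to 45.7 and 66.2 FPKM, against 287 FPKM in the control (limma adjusted p = 0.0266). PTPN2, a phosphatase of JAK1 and JAK3, fell to 13.9 and 15.3 FPKM, against 48.9 FPKM in the control (limma adjusted p = 0.0138). STAM, an adaptor that binds JAK2 and JAK3, rose to 35.1 and 36.4 FPKM, against 10.1 FPKM in the control (limma adjusted p = 0.0109). CBL, a ubiquitin ligase, rose to 20.1 and 20.7 FPKM, against 6.33 FPKM in the control (limma adjusted p = 0.0128).

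**Figure D4:**
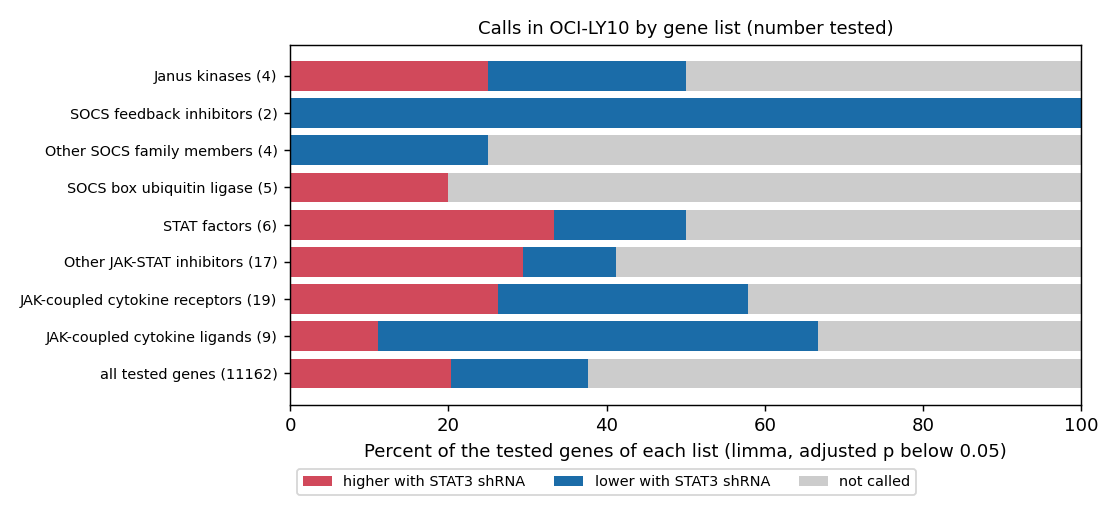
Percent of the tested genes of each list that were called higher (red), lower (blue) or not called (grey) with STAT3 shRNA in OCI-LY10, by limma at an adjusted p below 0.05, with the number tested in brackets. Each list holds few genes, and the bottom bar gives all 11162 tested genes, 20.3% higher and 17.4% lower.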

How the data were processed

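The authors deposited FPKM values per gene and library, one table per cell line, each with 25277 rows. Per the submitters' processing notes, the tools TopHat and Bowtie2 and the build hg19 are named, with no version. The library kit was a TruSeq RNA kit according to the labels' protocols. How FPKM was computed, with which annotation and scaling and with or without strand, is not given in the sources used here. Depth is unknown except relative to shRNA 10, where it was 0.731 for shRNA 16 and 1.52 for the control, read from values under 0.1 FPKM.

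The OCI-LY10 columns were matched to samples by name. Genes of mean at least 1 FPKM over the 3 OCI-LY10 libraries were tested on log2(FPKM + 1) by limma's two-sided moderated test with a trend of variance on mean (limma 3.58.1, R 4.3.3), Benjamini-Hochberg adjusted over all 11162 genes. It had 1 residual and 1.64 prior degrees of freedom. A gene that is low in 1 group passes the filter only through the other, so its direction is set in part by the filter. Values were summarised with pandas in Python. Alternatives were 8 refits (pseudocount, filter, scaling, small RNAs, trend), each shRNA alone, and another fold.

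Members and gene lists were chosen with earlier results of these data known. Named genes were the members, STAT3, up to 4 called genes per list (marker lists included) with the 2 highest and 2 lowest log2 changes, the 3 nearest profiles per member and called genes next to a member. A gene that this rule names is not reported here. PAX5, uncalled list genes and genes overlapping a member were named after their values were seen. Promoter windows and gene neighbours are from RefSeq on GRCh38.p14, which is not the build of the tables.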

Additional observations from a re-analysis of the deposited data

How the results depend on the processing

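JAK2 and SOCS3 stayed lower and past the threshold in every refit in which they were tested (limma adjusted p of 0.00145 to 0.0334 over 7 refits for JAK2, which was not tested at a mean of at least 5 FPKM, and 0.00107 to 0.0321 over 8 for SOCS3), and JAK1 and TYK2 never passed (0.0885 to 0.147 and 0.0746 to 0.192). SOCS1 ranged from 0.0138 to 0.105 and JAK3 from 0.0129 to 0.0565 over 7 refits each. The size depended on the pseudocount. With 0.1 and 5 FPKM the log2 change was −3.02 and −1.36 for JAK2, −4.23 and −2.35 for SOCS3, −2.16 and −0.41 for SOCS1 and 1.03 and 0.35 for JAK3. With no filter on low values, 0 members, 1299 of 18098 genes and 8 pathway list genes were called higher. The 4 members then called lower, beside 2101 of the 18098 genes, shared 2 with the 3 of the filtered fit. SOCS2 and CISH, at or near 0 in both STAT3 shRNA libraries, were the others. With a mean of at least 5 FPKM fewer genes were tested, 8032 in all, of which 1646 were called higher and 1178 lower. Of the members, 0 were then higher and 1 (SOCS3) lower, and 7 pathway list genes were lower. At a fold of at least 2, 0 members were higher and 2 lower with both shRNAs, and the share of all genes at this fold was not counted. Median-of-ratios scaling gave 2007 genes higher and 2091 lower, against 2263 and 1943. With each shRNA alone the log2 ratio ran from −2.46 to −2.37 for JAK2, −3.67 to −3.50 for SOCS3, −1.35 to −0.99 for SOCS1 and 0.75 to 0.76 for JAK3. No paired analysis was possible because the control is 1 library with no shRNA number, so the numbers 10 and 16 pair nothing. No member changed direction in these alternatives.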

Other observations

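Of the 3 genes on each side of each member in the RefSeq gene table, 48 in all, 32 were tested, 5 were higher and 4 lower with STAT3 shRNA in OCI-LY10 by limma. Over all tested genes 20.3% were called higher and 17.4% lower, so these counts do not set the neighbours apart. AK3, an adenylate kinase next to JAK2, stood at 8.18 and 8.34 FPKM with STAT3 shRNA, against 31.1 FPKM in the control (limma adjusted p = 0.011), while the 3 other tested neighbours of JAK2 were not called. SLC5A5, the iodide transporter beside JAK3, stood at 46.1 and 54.3 FPKM with STAT3 shRNA, against 0.128 FPKM in the control and 0.0742 to 0.161 FPKM in TMD8. Beside TYK2, RAVER1 and ICAM3 were higher (log2 changes 0.60 and 2.42) and PDE4A lower (−2.12). PDE4A passed the filter on mean FPKM only through the control, and SLC5A5 only through the STAT3 shRNA libraries. The direction of both follows in part from the filter. Beside SOCS2, CRADD and PLXNC1 were lower (−0.78 and −1.45), and PGS1 beside SOCS3 was higher (1.06). FCHO1, also beside JAK3, was higher (1.39). None of the 9 tested neighbours of JAK1, SOCS1 and CISH was called.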
